A study of Homo sapiens with 44 samples.

Results

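Prostaglandins are lipid mediators made from arachidonic acid, and PTGS2 (cyclooxygenase-2) is the inducible enzyme that commits arachidonic acid to this route. The chromatin around PTGS2 and 7 other prostaglandin genes was examined in 44 bulk ATAC-seq libraries of Ccd18-Co, a human colon fibroblast line. ATAC-seq cuts open chromatin with the transposase Tn5, so that read coverage at a site reports how accessible it is. The members were all 329 peaks, of 407383 in the table, whose row name carried PTGS2, PTGS1, PTGES, PTGIS, PTGER2, PTGER4, PLA2G4A or HPGD as its gene. PTGS2 was chosen by its values with IL13, because a pair of peaks past its 3′ end had stood out as low there, so every IL13 value below is a description without a test.

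One group was left unstimulated, and the other 10 each received 1 cytokine in serum-free medium. Per the study's methods, cells were serum-starved beforehand, and chromatin was taken at 1 time point after stimulation. IL6, IL13, IL17A, IL22, IFNA, IFNG, TGFB1, TNF and OSM (oncostatin M) were given at 10 ng/ml and IL1B at 0.1 ng/ml. Each group held 4 libraries. The labels name 1 cell line and do not say that the 4 libraries of a group came from separate cultures, so the p-values measure the spread between these libraries, which may be technical.

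Phospholipase A2 (PLA2G4A) frees arachidonic acid from membranes, PTGS1 and PTGS2 convert it to prostaglandin H2, and PTGES and PTGIS turn that product into prostaglandin E2 and prostacyclin. PTGER2 and PTGER4 are receptors for prostaglandin E2, and HPGD is the dehydrogenase that inactivates prostaglandins. In the gut, prostaglandin E2 from stromal cells is known to act on epithelial repair and on immune cells, and inflammatory cytokines are known inducers of PTGS2 in fibroblasts.

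Values are given as scaled coverage, the read coverage summed over a peak's 500 bases per megabase (Mb) of summed coverage in that library after scaling between libraries. Summed coverage ran from 149 to 823 Mb per library, lowest in IL6 replicate 4. The correlation between libraries of a group ranged from 0.771 to 0.930, and 18 of 44 libraries correlated best with a library of their own group. Fibroblast marker promoters were open (median scaled coverage 12.8 over the 11 of 14 genes with a promoter peak, from 0.548 at LUM to 25.1 at COL1A1), against 0.476 for 4 endothelial genes, 1.51 for 3 of 5 leukocyte genes and 1.42 for ELF3, the 1 of 6 epithelial genes with a promoter peak. Log2 changes are differences of mean log2(scaled coverage + 0.5), which understates changes of weak peaks. They were tested with limma across 407156 peaks, and a peak was called at a Benjamini-Hochberg adjusted p under 0.05. Because cells were measured in bulk, more cells with an open site and a more open site in each cell cannot be told apart.

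Sequence is shown for 5 stretches, namely the PTGS2 promoter, the pair of peaks past the PTGS2 3′ end, and the named peaks with the largest raised log2 change in PLA2G4A and PTGER4. These PLA2G4A and PTGER4 peaks reached the mean of at least 1 per Mb required for naming only through the group in which they were raised. The promoter is the 250 bases before the start site from RefSeq (GRCh38.p14, chr1:186680424-186680673, minus strand). The other 4 are the central 300 bases of each peak on the plus strand of hg38, at chr1:186671173-186671472 (near), chr1:186670282-186670581 (far), chr1:186849890-186850189 (PLA2G4A intron) and chr5:40406047-40406346 (PTGER4). Capitals mark matches to any of 7 motifs on either strand.

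PTGS2 promoter: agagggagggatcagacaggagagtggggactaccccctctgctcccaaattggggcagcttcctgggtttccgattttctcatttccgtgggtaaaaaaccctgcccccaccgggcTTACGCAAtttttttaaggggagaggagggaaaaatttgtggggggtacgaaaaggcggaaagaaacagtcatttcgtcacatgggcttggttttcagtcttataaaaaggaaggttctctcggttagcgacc
PTGS2 downstream peak, near: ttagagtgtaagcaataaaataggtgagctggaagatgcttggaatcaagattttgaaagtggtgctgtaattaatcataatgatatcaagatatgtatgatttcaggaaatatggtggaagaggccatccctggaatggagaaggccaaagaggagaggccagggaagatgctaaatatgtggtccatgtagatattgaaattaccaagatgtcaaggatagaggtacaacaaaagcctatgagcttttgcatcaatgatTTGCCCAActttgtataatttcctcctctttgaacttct
PTGS2 downstream peak, far: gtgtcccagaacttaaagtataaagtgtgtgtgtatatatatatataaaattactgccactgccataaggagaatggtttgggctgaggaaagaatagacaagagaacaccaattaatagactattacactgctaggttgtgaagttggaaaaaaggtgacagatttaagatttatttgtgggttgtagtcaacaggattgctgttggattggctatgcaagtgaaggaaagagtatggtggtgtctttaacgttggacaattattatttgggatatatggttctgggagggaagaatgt
PLA2G4A intronic peak: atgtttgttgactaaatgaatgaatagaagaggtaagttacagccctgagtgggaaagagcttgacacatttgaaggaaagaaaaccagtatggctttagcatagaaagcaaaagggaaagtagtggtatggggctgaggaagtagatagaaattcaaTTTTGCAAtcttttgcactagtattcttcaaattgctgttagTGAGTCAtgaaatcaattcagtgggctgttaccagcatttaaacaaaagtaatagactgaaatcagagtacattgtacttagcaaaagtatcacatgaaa
PTGER4 distal peak: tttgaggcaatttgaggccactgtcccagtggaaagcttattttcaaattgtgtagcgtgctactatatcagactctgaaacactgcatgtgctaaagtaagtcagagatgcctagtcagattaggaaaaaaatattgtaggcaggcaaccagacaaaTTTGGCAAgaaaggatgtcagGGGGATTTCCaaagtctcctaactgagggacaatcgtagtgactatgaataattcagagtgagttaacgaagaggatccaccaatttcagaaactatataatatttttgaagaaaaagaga

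The motifs searched were AP-1 (TGANTCA), CRE (TGACGTCA), C/EBP (TTGCNNAA), GAS, the interferon-gamma activated site (TTCNNNGAA), and, by name alone, the STAT6 site, the interferon-stimulated response element (ISRE) and the NF-kB site. The PTGS2 promoter held 1 C/EBP match, the near peak 1 C/EBP match and the far peak none of the 7 motifs. A C/EBP match was present in 9.05% of promoters of this length and in 25.8% of all peaks over their 500 bases. The whole near and far peaks held the same matches as their central 300 bases. The PLA2G4A stretch held 1 C/EBP and 1 AP-1 match, the latter found in 25.7% of all peaks. The PTGER4 stretch held 1 C/EBP match and 1 NF-kB match, the latter found in 13.0% of all peaks. Among the 329 member peaks, the shares with a match lay close to those of all peaks (AP-1 29.2%, C/EBP 26.7%, GAS 17.9% against 17.2%, STAT6 16.4% against 14.4%, ISRE 9.73% against 9.11%, NF-kB 13.4%, and CRE 0.304% against 0.530%). A match describes letters only and shows no binding.

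Of the 329 member peaks, 328 passed the filter on low values, and the one left out was an intronic HPGD peak. Over the 9 cytokines other than IL13, 59 of the 328 peaks (18.0%) were called in at least 1 comparison with unstimulated cells, against 12.8% of all tested peaks. Of the 59, 28 were only raised, 26 only lowered and 5 raised by 1 cytokine and lowered by another. Over all tested peaks, 7.27% were only raised and 4.74% only lowered. Calls went with the strength of a peak, at 27.2% of all tested peaks with a mean of at least 1 per Mb and 2.66% of weaker ones. PTGES had 8 of its 20 peaks called and PTGS2 9 of 24, with 14 and 17 peaks at a mean of at least 1 per Mb, and HPGD had 1 of 18 called and 5 at that level. The other counts were PTGS1 7 of 41, PTGIS 7 of 59, PTGER2 9 of 44, PTGER4 12 of 74 and PLA2G4A 6 of 48, with 21, 33, 25, 20 and 12 peaks at that level. The part of peak strength in the differences between genes was not tested. The comparisons share the 4 unstimulated libraries and are not independent of each other. PTGS2 was chosen by its IL13 difference from those libraries, so its count and the 18.0% are not free of that choice.

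IL1B, TNF, OSM and TGFB1 each moved 20 to 22 member peaks. IL1B raised 13 member peaks, or 3.96%, against 1.44% of all peaks, and lowered 9, or 2.74%, against 1.75%. TNF raised 13 (3.96%, against 2.68% of all peaks) and lowered 8 (2.44%, against 1.46%). With OSM, 12 were raised (3.66%, against 4.12%) and 8 lowered (2.44%, against 1.05%). TGFB1 raised 4 (1.22%, against 1.10%) and lowered 16 (4.88%, against 2.87%). Of the 16, 4 were in PTGS2, among them both peaks of the pair past its 3′ end. That pair was chosen by its IL13 difference from the same unstimulated libraries, so this lowered count is not free of that choice. OSM and TGFB1 calls depend on the scaling between libraries. The OSM total of 20 member peaks was 12 with scaling by library total and 13 by the median of ratios or by loess, and the TGFB1 total of 20 was 12 by loess. Over all peaks TGFB1 raised 4490 and lowered 11694, but 8421 and 5949 by the median of ratios and 6026 and 4003 by loess. OSM raised 16792 and lowered 4292 over all peaks, but 6024 and 5342 by the median of ratios and 5812 and 4321 by loess.

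Fewer member peaks were called with the other cytokines. IFNG raised 6 (1.83%, against 1.33% of all peaks) and lowered 3 (0.915%, against 0.232%). IFNA raised 0 (0.356% of all peaks), with 17 at an unadjusted p under 0.05, and lowered 3 (0.915%, against 0.295%). IL6 raised 0 (0.0344% of all peaks), with 10 at an unadjusted p under 0.05, and lowered 2 (0.610%, against 0.0302%), both in PTGS2. IL17A raised 1 (0.305%, against 0.0275%) and lowered 0 (0.00295% of all peaks), with 10 at an unadjusted p under 0.05. IL22 raised 0 (0.0803% of all peaks), with 11 at an unadjusted p under 0.05, and lowered 1 (0.305%, against 0.00368%). Both IL6 calls, the IL22 call and 2 of the 3 lowered IFNA calls were at the pair of peaks past the PTGS2 3′ end. Those peaks were chosen by their IL13 difference from the same unstimulated libraries, so these lowered counts are not free of that choice.

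In the direct comparison of IL1B with TNF, given at different doses, 4 member peaks were higher with IL1B (1.22%, against 0.218% of all peaks) and 3 were lower (0.915%, against 1.10%). With IL13, whose values chose PTGS2, 2 member peaks were above the threshold upwards, beside 0.756% of all peaks, and 12 downwards, beside 0.645%. These IL13 counts are a description and nothing is read from them. PTGS2 held 8 of the 12.

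**Figure D1:**
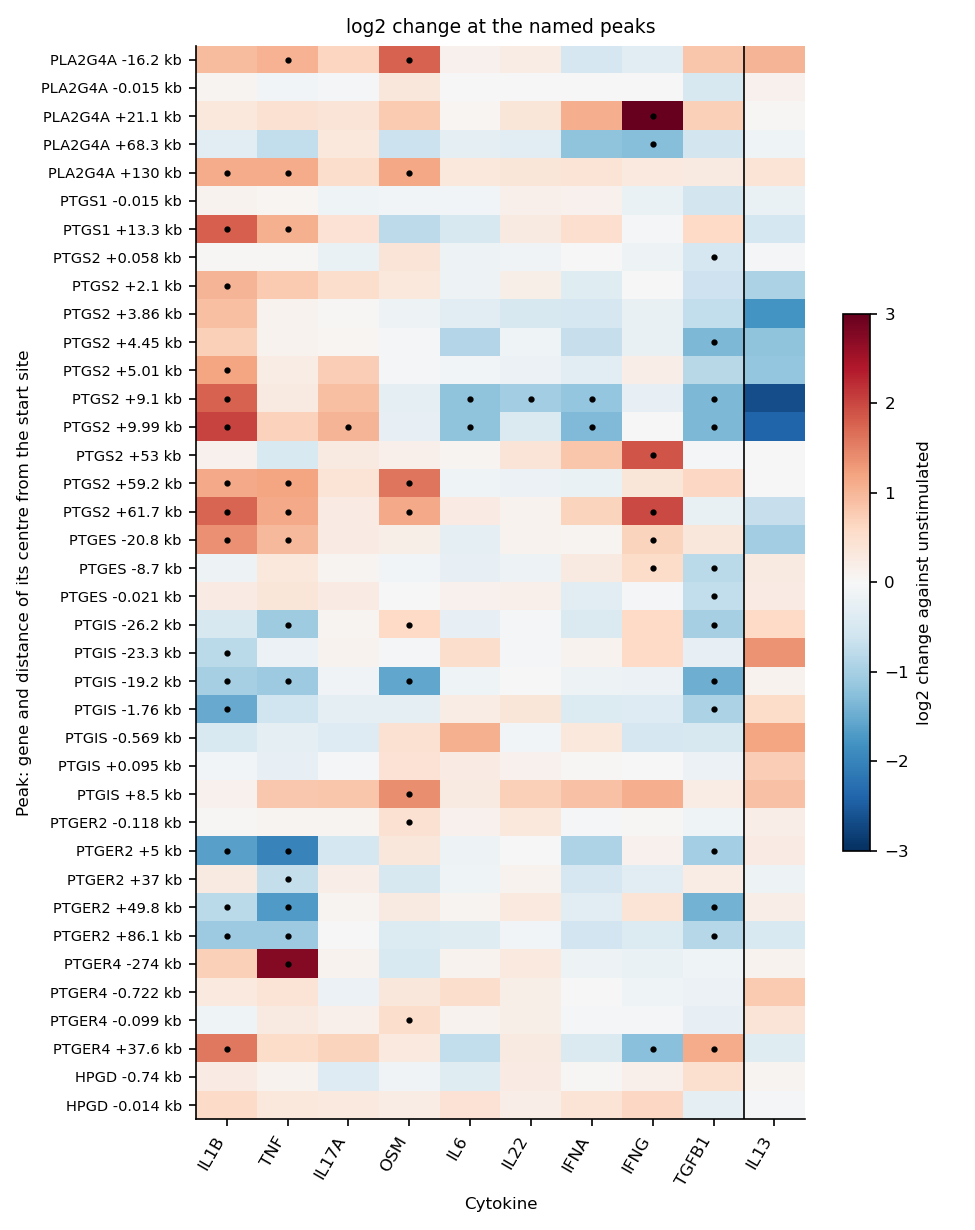
Log2 change against unstimulated cells (colour, from −3 to 3) at the 38 named peaks (rows, with the distance of the peak centre from the start site) for 10 cytokines (columns); dots mark calls at an adjusted p under 0.05, and the IL13 column, right of the line, carries no test. The PTGS2 pair at 9.10 and 9.99 kb is red with IL1B and deepest blue with IL13, the PLA2G4A peak at 21.1 kb is darkest with IFNG and the PTGER4 peak at 274 kb is darkest with TNF.

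PTGS2 lies on the minus strand of chromosome 1 with its start at 186680423 (hg38), and its 24 peaks all lay within the gene or past its 3′ end, up to 84.3 kb from the start. Peaks upstream of the start carried the name of the divergent transcript PACERR and are not members. The promoter peak (chr1:186680115-186680615) was open in every group, whereas the largest raised log2 changes within 20 kb of the start were at 2 intergenic peaks past the 3′ end. The near peak (chr1:186671072-186671572) began 219 bases past the annotated gene end, in the direction of the gene, and the far peak (chr1:186670181-186670681) 1110 bases past it.

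At the PTGS2 promoter peak, the unstimulated libraries read 21.7, 20.0, 18.2 and 20.3 per Mb. The IL1B libraries read 24.8, 18.1, 19.6 and 19.8, and the TNF libraries 19.7, 26.3, 20.4 and 17.2. Neither group was separated from unstimulated cells, and the log2 changes were 0.03 ± 0.15 (SE) with IL1B (limma adjusted p = 0.973) and 0.05 ± 0.15 with TNF (adjusted p = 0.948). OSM had the highest mean, 26.5 ± 3.07 (SD, n = 4), all 4 libraries lying above the unstimulated ones, with a log2 change of 0.39 ± 0.15 that did not pass (limma adjusted p = 0.0956). TGFB1 had the lowest mean, 14.1 ± 0.723 (SD, n = 4), against 20.0 ± 1.45 in unstimulated cells, and its log2 change of −0.49 was called (limma adjusted p = 0.0261). Over the strongest promoter-class peaks of 16765 genes, TGFB1 had a median log2 change of −0.24 and lowered 13.7%, and OSM had a median of 0.25 and raised 14.1%. The TGFB1 call at PTGS2 rested on the scaling, with a log2 change of −0.17 and an adjusted p of 0.683 under loess scaling. It was also lost without unstimulated replicate 1, 2 or 4 or TGFB1 replicate 3 or 4, where the log2 change lay between −0.49 and −0.46. In the order of group means at the promoter, each group overlapped the next, from OSM down to IL17A, and only TGFB1 stood apart from its neighbour.

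The near downstream peak showed a different range. Unstimulated libraries read 5.87, 12.1, 11.2 and 10.6 per Mb. The IL1B libraries, at 37.9, 29.1, 38.7 and 30.2, all lay above them, a log2 change of 1.76 ± 0.22 (SE, limma adjusted p = 5.1e-11). At the far peak, unstimulated libraries read 5.98, 11.5, 8.60 and 10.1 and IL1B libraries 33.2, 36.7, 39.7 and 40.6, again without overlap, and the log2 change was 2.03 ± 0.23 (limma adjusted p = 5.3e-14). Both IL1B calls held without any 1 library. The IL1B means were thus 34.0 ± 5.03 and 37.5 ± 3.38 (SD, n = 4) at the pair, above the 20.6 ± 2.93 at the promoter in the same libraries.

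IL17A was the next highest group at both downstream peaks. Its libraries read 17.6, 30.3, 17.8 and 12.2 at the near peak and 20.8, 25.6, 15.0 and 13.9 at the far peak, all above the unstimulated libraries. The log2 change was 1.01 ± 0.23 at the far peak (limma adjusted p = 0.0362) and 0.91 ± 0.22 at the near peak, which did not pass (adjusted p = 0.111). The far-peak call was lost without unstimulated replicate 1, 3 or 4 or IL17A replicate 1, 2 or 3, with log2 changes from 0.84 to 1.10. It was the only member peak called with IL17A. Leaving out IL17A replicate 4 instead gave 2 member calls.

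TNF libraries read 17.9, 7.42, 11.5 and 12.0 at the near peak and overlapped the unstimulated ones (log2 change 0.27 ± 0.22, limma adjusted p = 0.698). At the far peak they read 19.0, 11.6, 14.9 and 13.6, just above the highest unstimulated library, and the log2 change of 0.69 ± 0.23 missed the threshold (adjusted p = 0.0530). Compared directly, IL1B exceeded TNF by 1.49 ± 0.22 on the log2 scale at the near peak (limma adjusted p = 1.9e-07) and by 1.33 ± 0.23 at the far peak (adjusted p = 7.7e-06), with no overlap between the 8 libraries at either peak. The doses differed, at 0.1 ng/ml for IL1B and 10 ng/ml for TNF per the labels, and a figure legend of the study names a still lower IL1B dose. The difference between IL1B and IL17A was not tested.

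**Figure D2:**
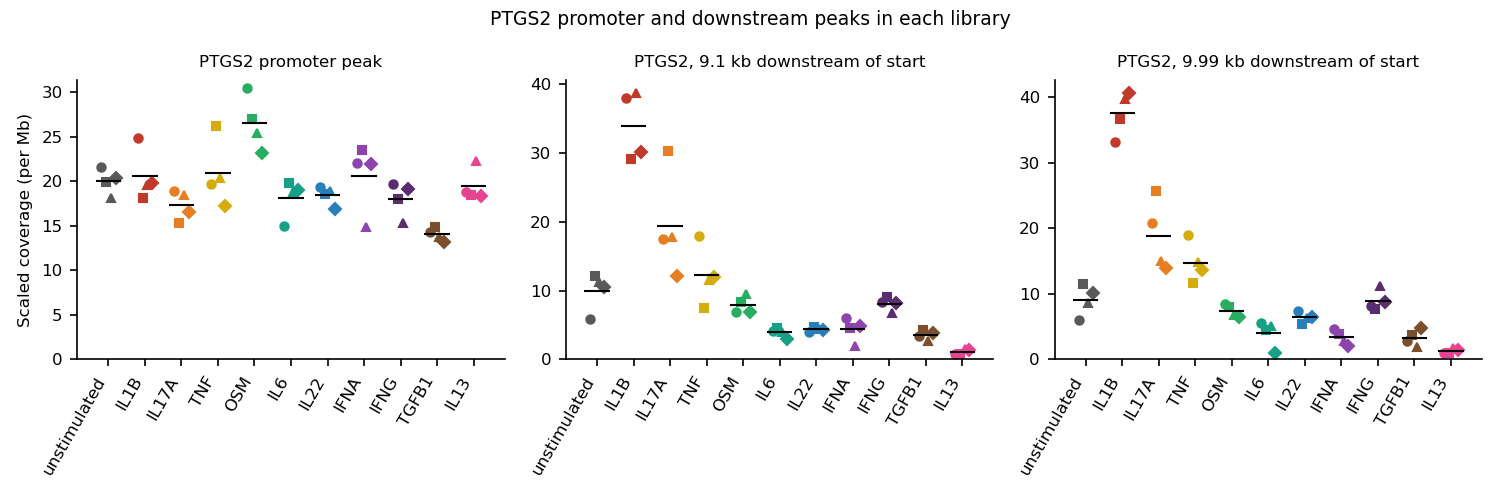
Scaled coverage (per Mb, linear axes from 0) of the PTGS2 promoter peak and of the 2 peaks past its 3′ end in each of the 44 libraries, by group; symbols mark replicates 1 to 4 (circle, square, triangle, diamond) and black lines the group means. The promoter means run from 14.1 to 26.5, and the downstream means from 1.12 or 1.29 with IL13 to 34.0 or 37.5 with IL1B.

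Several other cytokines went the opposite way at the pair. The TGFB1 libraries read 3.46, 4.22, 2.64 and 3.77 at the near peak and 2.83, 3.72, 1.91 and 4.74 at the far peak, all below the unstimulated ones. The log2 changes were −1.34 ± 0.22 (limma adjusted p = 1.6e-06) and −1.35 ± 0.23 (adjusted p = 2e-06). IFNA libraries read 6.09, 4.52, 1.90 and 4.92 at the near peak, the highest of them above the lowest unstimulated library, and 4.58, 3.92, 2.78 and 2.12 at the far peak, without overlap. Their log2 changes were −1.15 ± 0.22 (limma adjusted p = 0.00048) and −1.32 ± 0.23 (adjusted p = 2.9e-05). The TGFB1 and IFNA calls at both peaks held without any 1 library. The unstimulated libraries in these comparisons are the ones whose height also entered the IL13 difference that chose the pair.

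IL6 and IL22 were lower less firmly, against the same unstimulated libraries that entered the choice of the pair. The IL6 libraries read 4.08, 4.59, 4.01 and 2.99 at the near peak and 5.56, 4.48, 5.12 and 1.04 at the far peak, below all unstimulated libraries, with a log2 change of −1.21 at each (limma adjusted p = 0.0025 and 0.0027). Replicate 4, the library of lowest coverage, was the lowest at both. Without it the log2 changes were −1.10 (limma adjusted p = 0.061) and −0.75 (adjusted p = 0.516), and no member peak was called with IL6. IL22 libraries were tightly grouped at the near peak, at 4.06, 4.68, 4.47 and 4.30, a log2 change of −1.05 ± 0.22 (limma adjusted p = 0.013) that was lost without unstimulated replicate 2, 3 or 4 or IL22 replicate 1 or 4 (log2 changes from −1.05 to −0.95). At the far peak the IL22 log2 change was −0.44 ± 0.23 (adjusted p = 0.662).

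OSM and IFNG left no call at the pair. OSM libraries read 6.89, 8.42, 9.56 and 6.86 at the near peak and overlapped the unstimulated range (log2 change −0.27, limma adjusted p = 0.540), although OSM had the highest promoter mean. IFNG libraries read 8.41, 9.07, 6.69 and 8.15 (log2 change −0.24, adjusted p = 0.830). At the far peak the log2 changes were −0.24 with OSM (limma adjusted p = 0.608) and 0.01 with IFNG (adjusted p = 0.997).

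As a description, the IL13 libraries read 0.814, 0.856, 1.48 and 1.32 at the near peak and 1.02, 0.926, 1.79 and 1.43 at the far peak. All were below every library of the other groups except IL6 replicate 4 at the far peak, which read 1.04. The log2 differences from unstimulated cells were −2.67 and −2.40, and the third largest decrease among member peaks of mean coverage of at least 1 was also in PTGS2, at the exonic peak chr1:186676311-186676811 (0.686 against 3.17, log2 difference −1.79). The IL13 promoter libraries read 18.8, 18.5, 22.3 and 18.4, within or above the unstimulated range.

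Coverage at the pair relative to the promoter is free of the scaling between libraries. The mean of the pair divided by the promoter was 0.480 ± 0.141 (SD, n = 4) in unstimulated cells, 1.76 ± 0.239 with IL1B, 1.13 ± 0.475 with IL17A and 0.672 ± 0.239 with TNF. It was 0.477 ± 0.0707 with IFNG, 0.293 ± 0.0202 with IL22, 0.291 ± 0.0301 with OSM, 0.243 ± 0.0665 with TGFB1, 0.225 ± 0.0891 with IL6, 0.185 ± 0.0394 with IFNA and 0.0614 ± 0.0148 with IL13. The IL1B and IL17A ratios, whose lowest libraries were 1.43 and 0.790, lay above the highest unstimulated ratio of 0.591. The IFNA and IL13 ratios, up to 0.242 and 0.0748, lay below the lowest unstimulated ratio of 0.274, whereas those of the other 6 cytokines overlapped the unstimulated range. Because the pair was chosen by its low IL13 values against these unstimulated libraries, the IL13 separation is only a description.

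**Figure D3:**
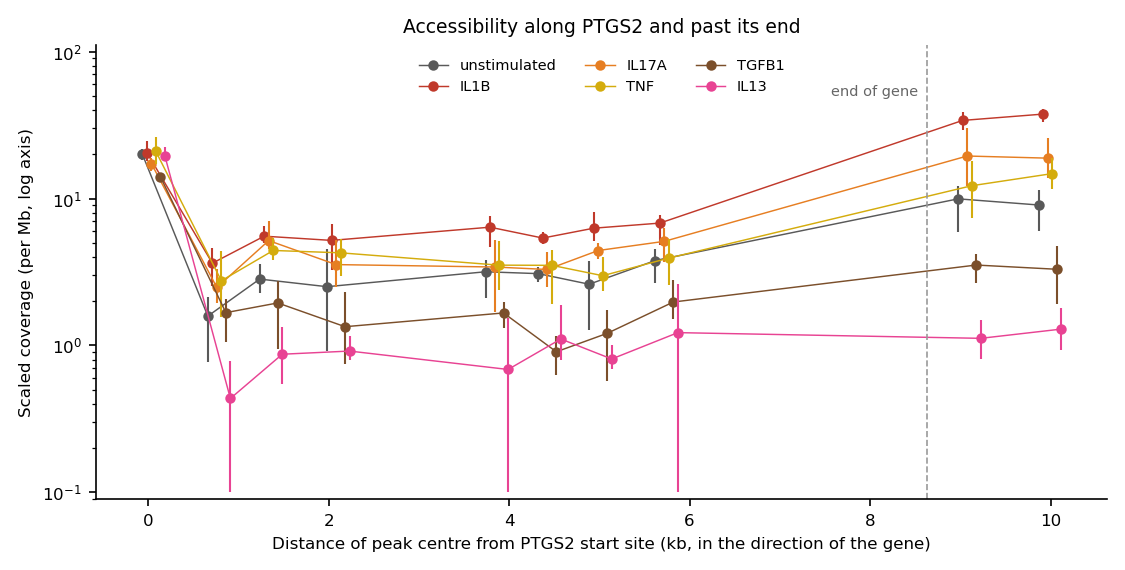
Mean scaled coverage (per Mb, log axis) of the 10 PTGS2 peaks within 12 kb of the start site, against the distance of the peak centre from the start in the direction of the gene, for 6 groups; vertical lines span the lowest to the highest of 4 libraries and are cut at 0.1, and the dashed line is the annotated gene end. The groups meet at the promoter, and past the gene end they spread from 1.12 with IL13 to 37.5 with IL1B.

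Between promoter and gene end, the PTGS2 exonic peaks were low. At chr1:186675162-186675662, 5.01 kb into the gene, IL1B libraries read 8.11, 5.14, 5.96 and 5.91 against 1.27, 1.95, 3.75 and 3.47 in unstimulated cells (log2 change 1.20 ± 0.30, limma adjusted p = 0.0062). The call was lost without unstimulated replicate 1 (log2 change 0.95, limma adjusted p = 0.105). At chr1:186675726-186676226, TGFB1 libraries read 0.969, 1.15, 0.874 and 0.626 against 2.68, 3.44, 3.26 and 2.94, a log2 change of −1.36 ± 0.31 (limma adjusted p = 0.0011) that held without any 1 library. Another exonic peak, 2.10 kb from the start, was called with IL1B at 1.02 ± 0.31 (limma adjusted p = 0.034), a call that was lost without unstimulated replicate 2, 3 or 4 or any of IL1B replicates 1 to 3 (log2 changes from 0.71 to 1.08).

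Farther past the gene, 3 PTGS2 peaks between 53.0 and 61.7 kb from the start were called with other cytokines. They were added to the named peaks after their values were seen. At chr1:186618456-186618956, IFNG libraries read 6.93, 8.78, 8.99 and 5.86 against 1.11, 2.17, 0.688 and 2.90 in unstimulated cells (log2 change 1.98 ± 0.30, limma adjusted p = 1.3e-07). IL1B raised the same peak by 1.76 ± 0.30 (limma adjusted p = 2.8e-06), and OSM and TNF by 1.13 ± 0.30 each (adjusted p = 0.0081 and 0.0079). The OSM call was lost without unstimulated replicate 3 (log2 change 0.87) and the TNF call without unstimulated replicate 1 or 3 or TNF replicate 2 (0.87 to 1.02).

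A second peak of the 3, at chr1:186627159-186627659, was raised with IFNG alone of the 9 cytokines. Its IFNG libraries read 6.20, 4.68, 4.78 and 6.59 against 1.63, 1.39, 1.13 and 0.532 (log2 change 1.90 ± 0.34, limma adjusted p = 2e-05). The third, at chr1:186620934-186621434, was raised with OSM (1.60 ± 0.27, limma adjusted p = 1.8e-06), TNF (1.19 ± 0.27, adjusted p = 0.00077) and IL1B (1.14 ± 0.27, adjusted p = 0.0020). No protein-coding start was nearer to these peaks than that of PTGS2.

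PLA2G4A, on the opposite strand of the same chromosome, releases the substrate of both cyclooxygenases. Its promoter peak (chr1:186828684-186829184) had group means from 3.66 with TGFB1 to 6.90 with OSM, against 5.31 in unstimulated cells, and no call. An intronic peak 21.1 kb into the gene (chr1:186849789-186850289) was raised by IFNG. It was named as the largest raised peak of mean coverage of at least 1 per Mb, a level it reached (1.04) through IFNG, since its mean over the other 10 groups was 0.558. That mean still passed the filter for testing. The peak was nearly closed in unstimulated cells, at 0, 0.192, 0.445 and 0.402, each at or under the equivalent of 3 reads, whereas IFNG libraries read 6.21, 6.79, 4.75 and 5.62. This was at least 10.7-fold higher than the mean floor of 3 reads per library, with a fitted log2 change of 3.09 ± 0.39 (limma adjusted p = 8.9e-11) that held without any 1 library.

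At the same intronic peak, IFNA libraries read 0.967, 1.66, 0.828 and 0.973, above all unstimulated libraries, but the log2 change of 1.10 ± 0.39 did not pass (limma adjusted p = 0.235). The difference between the interferons was not tested. An upstream peak, chr1:186812505-186813005, was named for its increase with IL13 over the same unstimulated libraries. Its OSM libraries read 4.80, 7.36, 2.79 and 6.65 against 2.00, 0.144, 1.30 and 2.07 (log2 change 1.76 ± 0.34, limma adjusted p = 5.2e-05). TNF raised that peak by 1.05 ± 0.34 (adjusted p = 0.046), lost without unstimulated replicate 2 or 3 or TNF replicate 1, 2 or 3 (log2 changes from 0.60 to 1.13). A second intronic peak, at 130 kb (chr1:186958391-186958891), was raised by OSM at 1.16 ± 0.27 (limma adjusted p = 0.0017), by TNF at 1.11 ± 0.27 (adjusted p = 0.0028) and by IL1B at 1.11 ± 0.27 (adjusted p = 0.0037), and the IL1B call was lost without unstimulated replicate 2 (log2 change 0.93). The largest lowered call of PLA2G4A was with IFNG at chr1:186896956-186897456 (0.606 against 2.23, log2 change −1.28, limma adjusted p = 0.022), lost without unstimulated replicate 3 or 4 or IFNG replicate 3 or 4 (−1.26 to −1.10).

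PTGS1, the constitutive cyclooxygenase, had no promoter-class row, and the row nearest its start (chr9:122370759-122371259) had means from 4.09 with TGFB1 to 6.81 with IFNA and no call. Its responses were in the body of the gene and past it. At chr9:122384083-122384583, in an intron 13.3 kb from the start, IL1B libraries read 7.22, 5.34, 8.73 and 6.57 against 2.23, 2.15, 1.59 and 0.809, without overlap (log2 change 1.80 ± 0.33, limma adjusted p = 2.5e-05). This call held without any 1 library. With TNF the log2 change was 1.06 ± 0.33 (adjusted p = 0.042), lost without unstimulated replicate 3 or 4 or TNF replicate 1, 3 or 4 (log2 changes from 0.83 to 1.06).

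PTGES is the inducible prostaglandin E synthase, and 3 of its 8 called peaks are described here. The distal peak chr9:129773564-129774064, 20.8 kb upstream, was raised by IL1B, whose libraries read 22.9, 23.0, 33.8 and 27.3 against 9.08, 10.8, 11.2 and 8.78 (log2 change 1.37 ± 0.18, limma adjusted p = 2.3e-10). TNF libraries read 20.7, 20.1, 17.3 and 21.5, also all above the unstimulated ones (0.97 ± 0.18, adjusted p = 1.8e-05). Both calls held without any 1 library, and the direct difference between IL1B and TNF of 0.40 ± 0.18 did not pass (adjusted p = 0.398). IFNG libraries read 16.2, 16.0, 16.5 and 15.2 (0.66 ± 0.18, adjusted p = 0.022), a call lost without unstimulated replicate 1 or 4 or IFNG replicate 1, 2 or 3 (log2 changes from 0.61 to 0.66). As a description, IL13 libraries read 6.43, 5.73, 2.94 and 3.76 at this peak, all below the unstimulated range.

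TGFB1 lowered a strong PTGES peak 8.70 kb upstream of the start and, depending on the scaling, the PTGES promoter. At the promoter (chr9:129752813-129753313), TGFB1 libraries read 11.1, 11.3, 11.2 and 8.18 against 21.5, 14.5, 14.6 and 21.3 (log2 change −0.74 ± 0.15, limma adjusted p = 0.00017). Under loess scaling the log2 change was −0.43 and the call was lost (limma adjusted p = 0.0599). TGFB1 lowered 13.7% of the strongest promoter-class peaks of all genes, with a median log2 change of −0.24. At chr9:129761493-129761993, TGFB1 libraries read 15.3, 18.7, 20.8 and 15.8 against 24.5, 35.7, 32.4 and 31.9 (−0.80 ± 0.12, adjusted p = 1.7e-07), and this call held under loess scaling and without any 1 library. IFNG libraries there read 43.0, 47.2, 48.5 and 44.5, the highest group (0.56 ± 0.12, adjusted p = 0.0012), a call lost without unstimulated replicate 1 (log2 change 0.45). IL1B was below TNF at this peak by 0.47 on the log2 scale (limma adjusted p = 0.020), lost without IL1B replicate 1, 2 or 4 or TNF replicate 1, 2 or 3 and under loess scaling (log2 differences from −0.46 to −0.31).

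PTGIS, prostacyclin synthase, had 7 of 59 peaks called in the 9 comparisons, of which 4 were only lowered, 2 only raised and 1 both. At the distal peak chr20:49587051-49587551, 19.2 kb upstream, unstimulated libraries read 14.9, 15.8, 14.3 and 14.3. OSM libraries read 4.58, 3.94, 5.54 and 4.73 (log2 change −1.57 ± 0.19, limma adjusted p = 1.5e-11) and TGFB1 libraries 3.69, 7.93, 4.48 and 4.97 (−1.46 ± 0.19, adjusted p = 3.3e-10). TNF libraries read 7.13, 6.42, 6.84 and 6.29 (−1.10 ± 0.19, adjusted p = 3.5e-06) and IL1B libraries 8.08, 6.39, 6.29 and 8.36 (−0.99 ± 0.19, adjusted p = 6.2e-05). None of these 16 libraries overlapped the unstimulated ones, and the 4 calls held without any 1 library and under the other 11 alternatives. IL6 replicate 4 read 28.5 here, against 10.3 to 10.9 in the other 3 IL6 libraries.

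A neighbouring PTGIS peak, chr20:49594051-49594551, was lowered by TNF (8.13, 3.02, 8.38 and 5.19, against 9.98, 12.7, 14.8 and 13.2 unstimulated, log2 change −1.06 ± 0.18, limma adjusted p = 3.6e-06) and by TGFB1 (mean 6.08 against 12.7 unstimulated, adjusted p = 2.4e-05). OSM libraries read 20.3, 17.3, 23.2 and 17.3, above the unstimulated range (0.60 ± 0.18, adjusted p = 0.029), but that call was lost with every other scaling (0.27 under loess) and without unstimulated replicate 1, 2 or 4 or OSM replicate 1 or 3 (log2 changes from 0.50 to 0.63). At the promoter-class peak chr20:49569643-49570143, 1.76 kb upstream of the start, IL1B libraries read 2.90, 1.56, 0.447 and 1.27 against 7.29, 3.38, 4.74 and 4.43 (−1.51 ± 0.27, limma adjusted p = 1e-05). TGFB1 lowered the same peak by 0.96 on the log2 scale (log2 change −0.96, adjusted p = 0.017), lost without unstimulated replicate 1 or TGFB1 replicate 1 or 4 (−0.87 to −0.77). The row nearest the PTGIS start (chr20:49567792-49568292, 0.095 kb into the gene) had no call in the 9 comparisons. IL1B libraries there read 1.98, 1.87, 2.94 and 2.38 against 2.63, 2.19, 2.23 and 2.62 in unstimulated cells. In an intron, OSM raised chr20:49559391-49559891 by 1.40 ± 0.35 (2.66 against 0.738, adjusted p = 0.0043), lost without unstimulated replicate 1 (1.13).

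The largest IL13 increases among member peaks, as a description, were 2 PTGIS peaks and the PLA2G4A peak 16.2 kb upstream. At chr20:49591214-49591714, IL13 libraries read 14.6, 16.5, 12.4 and 11.8 against 4.95, 5.67, 5.74 and 4.09 in unstimulated cells (log2 difference 1.35), the highest group at this peak. IL1B libraries read 1.38, 2.28, 3.53 and 4.44 and overlapped the unstimulated ones at their top. The IL1B log2 change of −0.80 ± 0.24 was called (limma adjusted p = 0.034) but lost without unstimulated replicate 1, 2 or 3 or IL1B replicate 1 or 2 (−0.81 to −0.55).

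**Figure D4:**
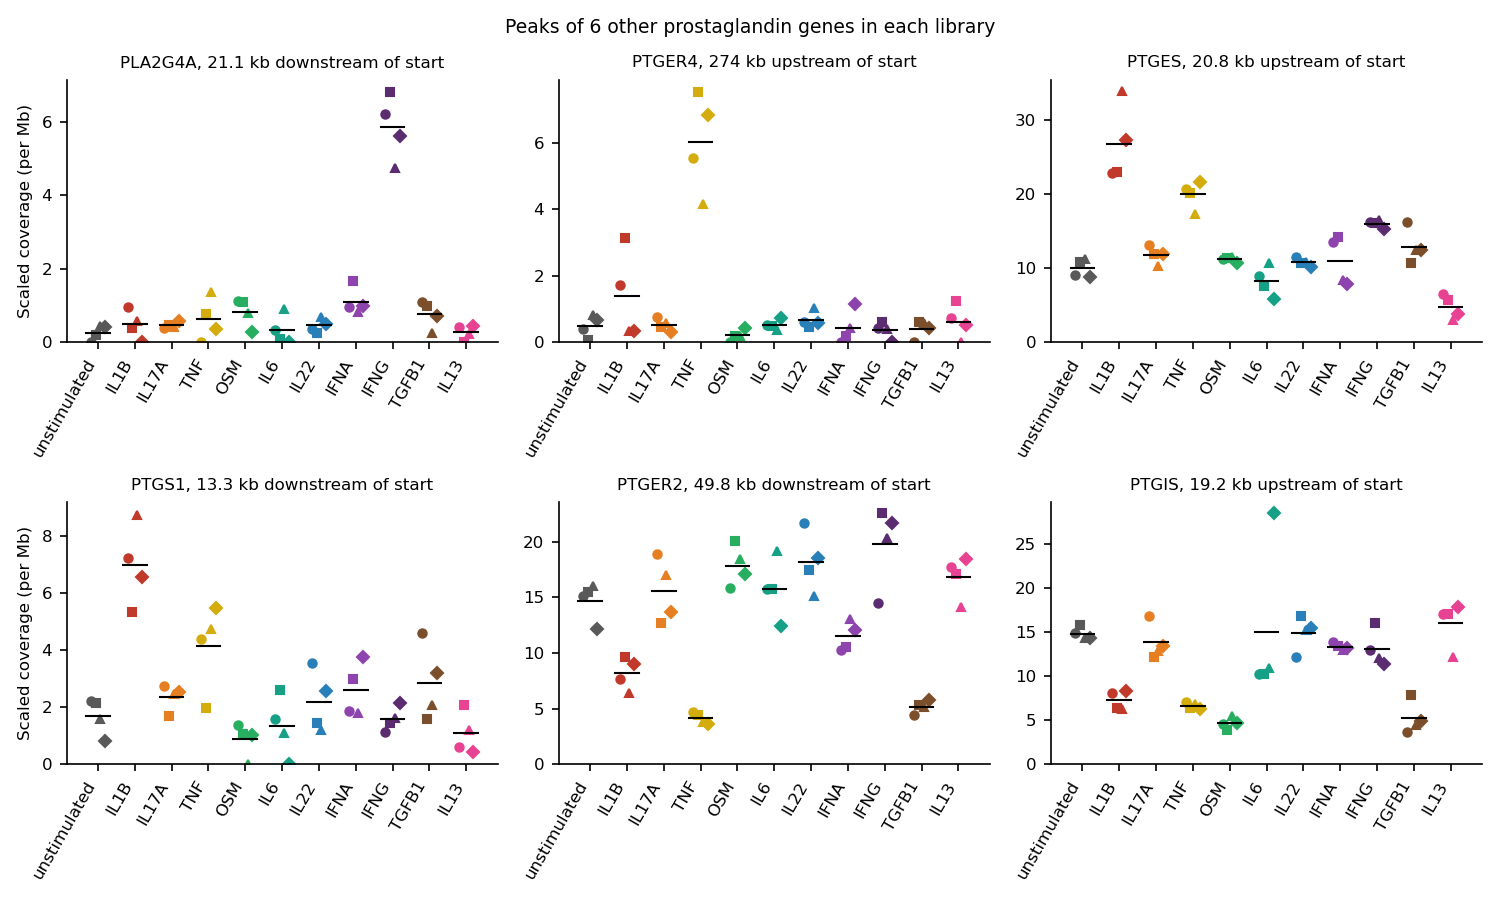
Scaled coverage (per Mb, linear axes from 0) of 1 peak each of PLA2G4A, PTGER4, PTGES, PTGS1, PTGER2 and PTGIS in the 44 libraries, by group; symbols mark replicates 1 to 4 (circle, square, triangle, diamond) and black lines the group means. The PLA2G4A peak is high with IFNG (mean 5.84), the PTGER4 peak with TNF (6.01), and the PTGER2 peak is low with TNF (4.15), TGFB1 (5.17) and IL1B (8.18) against 14.7 in unstimulated cells.

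PTGER2, a prostaglandin E2 receptor that raises cyclic AMP, had lowered peaks with TNF, TGFB1 and IL1B. In its intron, 5.00 kb from the start (chr14:52319065-52319565), TNF libraries read 0.378, 1.43, 1.09 and 1.20 against 5.98, 5.60, 5.73 and 4.18 (log2 change −1.99 ± 0.27, limma adjusted p = 7.4e-10). IL1B libraries read 1.29, 1.47, 1.07 and 1.70 (−1.64 ± 0.27, adjusted p = 1.1e-06). TGFB1 libraries, at 2.13, 3.34, 2.87 and 1.46, were lower by 1.03 on the log2 scale (log2 change −1.03, adjusted p = 0.0083), a call lost without TGFB1 replicate 4 (−0.85).

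A distal PTGER2 peak 49.8 kb past the start (chr14:52363828-52364328), named after its values were seen, gave the smallest adjusted p of the members in the 9 comparisons. TNF libraries read 4.68, 4.43, 3.85 and 3.66 against 15.2, 15.4, 16.1 and 12.2 (log2 change −1.71 ± 0.17, limma adjusted p = 1.7e-16). TGFB1 libraries read 4.45, 5.34, 5.16 and 5.75 (−1.42 ± 0.17, adjusted p = 2e-11) and IL1B libraries 7.66, 9.63, 6.38 and 9.03 (−0.82 ± 0.17, adjusted p = 0.00044). No library of the 3 groups overlapped the unstimulated ones. IL1B was above TNF by 0.89 ± 0.17 (limma adjusted p = 0.00026).

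Another distal PTGER2 peak, 86.1 kb past the start (chr14:52400145-52400645), was lowered by TNF (−1.09 ± 0.23, limma adjusted p = 0.00038), IL1B (−1.08 ± 0.23, adjusted p = 0.00062) and TGFB1 (−0.87 ± 0.23, adjusted p = 0.012), the last lost without unstimulated replicate 2 or TGFB1 replicate 4 (−0.80 and −0.77). At chr14:52351067-52351567, IL1B exceeded TNF by 0.98 ± 0.21 (10.9 against 5.31, limma adjusted p = 0.0012). The PTGER2 promoter had means from 19.2 with TGFB1 to 29.2 with OSM, and the OSM log2 change of 0.45 ± 0.14 was called (adjusted p = 0.030). It was 0.05 (adjusted p = 0.928) with loess scaling, and was lost without unstimulated replicate 2 or 4 or OSM replicate 1 or 2 (0.38 to 0.44).

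PTGER4, the other cyclic AMP-raising receptor for prostaglandin E2, had its largest named log2 change far from the gene. The peak reached a mean of at least 1 per Mb (1.06) through TNF, its mean over the other 10 groups being 0.560, which still passed the filter for testing. At chr5:40405946-40406446, 274 kb upstream and with no nearer protein-coding start, TNF libraries read 5.55, 7.51, 4.16 and 6.82 against 0.409, 0.0531, 0.827 and 0.672 (log2 change 2.76 ± 0.40, limma adjusted p = 7.5e-09). IL1B libraries read 1.73, 3.12, 0.325 and 0.336 and overlapped the unstimulated ones (0.71 ± 0.40, adjusted p = 0.489). IL1B was below TNF by 2.05 ± 0.40 on the log2 scale (log2 difference −2.05, adjusted p = 0.00018). The direct difference had an adjusted p of 0.0720 with a pseudocount of 0.1 in place of 0.5.

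Nearer PTGER4, chr5:40717288-40717788, 37.6 kb past the start and over the gene TTC33, went in opposite directions. IL1B libraries read 8.78, 7.95, 9.00 and 10.5 against 3.06, 2.07, 3.49 and 2.38 (log2 change 1.57 ± 0.30, limma adjusted p = 4.6e-05), whereas IFNG libraries read 1.13, 0.936, 0.718 and 0.636 (−1.25 ± 0.30, adjusted p = 0.0045). TGFB1 raised it by 1.12 ± 0.30 (adjusted p = 0.0099), lost without unstimulated replicate 2 or TGFB1 replicate 3 (1.01 in both). The PTGER4 promoter-class peak had no call in the 9 comparisons, with means from 4.75 with IL17A to 8.10 with IL6 and 5.49 in unstimulated cells. The row over its start (chr5:40679566-40680066) was called with OSM at 0.52 ± 0.16 (adjusted p = 0.036), and that call was lost with every other scaling (0.17 under loess) and without 6 of the 8 libraries, namely unstimulated replicates 2 to 4 and OSM replicates 2 to 4 (0.46 to 0.52).

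HPGD, which degrades prostaglandins, was scarcely accessible at its promoter-class peak (chr4:174522978-174523478), with group means from 0.374 to 1.07 per Mb. The row over its start (chr4:174522252-174522752) had means from 0.990 to 2.00, and neither had a call. Its 1 called peak, lowered with OSM 118 kb upstream (0.0462 against 0.843, limma adjusted p = 0.047), was lost in 7 of 8 fits that left out a library, and it is given here only because it was the gene's single call.

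A list of 40 further genes of eicosanoid metabolism and signalling was counted by main promoter peak, of which 37 were measured. IL1B raised 0 of 37, with 1 at an unadjusted p under 0.05, beside 1.19% of the strongest promoter-class peaks of all genes. IL1B lowered 1 of 37 (1.85% of such peaks), ANXA1 (annexin A1, an inhibitor of phospholipase A2), with a log2 change of −0.83 (limma adjusted p = 0.0363). TNF lowered ANXA1 too (−1.14, adjusted p = 0.000473). TNF lowered 0.841% and raised 2.12% of such peaks over all genes. It raised 1 of 37, the prostaglandin transporter gene SLCO2A1 (mean 2.26 against 0.518 in unstimulated cells, limma adjusted p = 0.00867). That unstimulated mean lay under the mean floor of 3 reads in the group, 0.5485 per Mb. OSM raised 4, namely ALOX5AP (1.07), DAGLA (0.94), AKR1C3 (0.69) and the prostacyclin receptor PTGIR (0.64), beside 14.1% of the strongest promoter-class peaks of all genes, and the median log2 change was 0.21 over the 37 and 0.25 over those peaks. TGFB1 lowered 1, the monoacylglycerol lipase gene MGLL (−1.08, adjusted p = 0.00383), beside 13.7% of such peaks, with medians of −0.26 over the 37 and −0.24 over those peaks. With IL6, IL17A, IL22, IFNA and IFNG, limma called 0 of 37, and 1, 3, 3, 3 and 4 had an unadjusted p under 0.05. Calls were also rare over the strongest promoter-class peaks of all genes. In the same order, 0.221%, 0.0656%, 0.841%, 0.763% and 1.74% were raised and 0.0119%, 0%, 0%, 0.143% and 0.167% lowered. At these shares, 0 of 37 cannot tell the listed genes from other genes.

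Likeness to PTGS2 was measured as Pearson's r of log2 scaled coverage over the 44 libraries, which share groups and depth, so no p is given. For the PTGS2 promoter, the most alike of 21584 promoter-class peaks of other genes were those of ZNF557 (r = 0.766), CNBP (0.758), ATAD2 (0.752), MTIF2 (0.750) and ALDH3A2 (0.743). For the far downstream peak, in a search added after the data were seen, the most alike of 167716 peaks of any class were named for ESYT3 (0.865), LRIG3 (0.863), CD226 (0.851), NRG1-IT3 (0.851) and LIF (0.845), the last the gene of a cytokine of the IL-6 family.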

How the data were processed

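Omni-ATAC libraries of Ccd18-Co colon fibroblasts (44 libraries, 11 groups of 4, grouped by the labels) were processed by the authors with the ENCODE ATAC-seq pipeline, in the version their methods name, with alignment to hg38 and peak calling by MACS2. The MACS2 version is not given in the sources used here. The study's methods describe 500-base fixed-width peaks that ArchR made from its single-cell ATAC-seq data, but do not say whether the peaks of this table are those, nor how the table was filtered. The deposited values are signal, the summed read coverage per peak and library, with no normalization. The peaks' class and gene name are the authors'. Peak starts were read as counted from 0 when sequence was taken from hg38.

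Coverage was scaled by a trimmed mean of log ratios (30% of ratios and 5% of means trimmed) and given per Mb. Peaks with a log2 mean per Mb above −3 were tested (407156, with 227 left out). The log2 values, with a pseudocount of 0.5, were fitted in 1 model of all 44 libraries with limma 3.58.1 in R 4.3.3 (trended empirical Bayes), and p-values were adjusted by Benjamini-Hochberg over all tested peaks at 0.05. The fit was tested on simulated data. Unadjusted counts use the same limit. Input was read with data.table (version 1.17.8), and Python 3.11.15 with pandas 2.3.3, NumPy 2.4.6 and matplotlib 3.10.9 served for summaries and figures. Start sites were those of GENCODE canonical transcripts, and the PTGS2 promoter came from RefSeq.

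The members and lists were chosen with earlier results of these data known. Named peaks were each gene's strongest promoter-class peak (or the row nearest the start), its called peaks with the largest raised and lowered log2 change among those of mean coverage of at least 1 per Mb, PTGS2 peaks within 20 kb of the start called in any comparison but IL13, and the 3 largest increases and decreases with IL13. Peaks called in 3 or more of 9 comparisons, further PTGS2 peaks, rows nearest the start sites of PTGIS, PTGER4 and HPGD, and the likeness search for the downstream peak were added after values were seen. A floor of 3 reads of 75 bases per library stands for a value not told from 0. The floor allows for counting error alone. Replicate numbers are shared between groups, and the main fit did not pair libraries by them. Alternatives were other scalings, pseudocounts, filters, a GC correction, a replicate block, fits of the 2 groups alone and 44 fits without 1 library each.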

Additional observations from a re-analysis of the deposited data

Results flagged for a closer look

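In 17 promoter or PTGS2 peaks, 187 groups of 4 libraries were checked for 1 library standing far from the other 3 by Dixon's criterion, and 10 were found. Chance flags about 1 in 20 groups. At the PTGS2 promoter, IL13 replicate 3 read 22.25 per Mb against 18.35 to 18.76 in the others. At the PTGES promoter, TGFB1 replicate 4 read 8.179 against 11.1 to 11.25. At the PTGIS promoter-class peak, TNF replicate 2 read 4.882 against 2.397 to 2.815. At the PTGER2 promoter, IL1B replicate 3 read 25.03 against 20.64 to 21.01. The PLA2G4A promoter had 2 such libraries, IL6 replicate 4 at 3.053 against 5.949 to 6.277 and OSM replicate 3 at 9.817 against 5.502 to 6.221. In the PTGS2 gene body, IL13 replicate 3 read 1.881 at the peak 4.45 kb from the start, against 0.7906 to 0.9594, and IFNA replicate 3 read 3.25 at the peak 3.86 kb from the start, against 1.615 to 1.839. Past the gene, TGFB1 replicate 1 read 2.964 at the peak 61.7 kb from the start, against 0.776 to 1.008, and IL6 replicate 1 read 2.225 at the peak 53.0 kb from the start, against 0.8288 to 1.042. No cause was tested.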

How the results depend on the processing

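Of 70 calls at the 38 named peaks, 44 held without any 1 library, 53 under all 11 other alternatives and 42 under both, and none changed direction. Without 1 library at a time, the member peaks called numbered 17 to 22 for IL1B (22 with all), 16 to 20 for TNF (21), 10 to 16 for OSM (20), 12 to 17 for TGFB1 (20), 5 to 8 for IFNG (9), 2 to 4 for IFNA (3), 0 to 4 for IL6 (2), 0 to 2 for IL17A (1), 0 to 1 for IL22 (1) and 5 to 9 for IL1B against TNF (7). Counts moved by over 1.5 times without IL6 replicate 1 (4) or 4 (0), unstimulated replicate 4 for IFNG (5), TGFB1 replicate 4 (12), and for OSM without unstimulated replicate 2 (10), 3 (13) or 4 (11) or OSM replicate 1 (11), 2 (11) or 3 (12). For IL17A and IL22 the libraries are those named with their single calls.

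Scaling moved OSM to 12 by library total and 13 by median of ratios or loess, and TGFB1 to 12 by loess. Over all peaks, OSM raised 16792 and lowered 4292 as reported but 6640 and 5260 by library total, 6024 and 5342 by median of ratios and 5812 and 4321 by loess, and TGFB1 raised 4490 and lowered 11694, against 6985 and 7629, 8421 and 5949, and 6026 and 4003. IL17A gave 0 with a pseudocount of 0.1 or the filter on means (1 per Mb or more), and 2 with a pseudocount of 2 or the 2 groups alone. IL22 gave 0 with the GC correction, IFNA 6 with that filter, and IL1B against TNF 14 with the 2 groups alone. The median log2 change of all peaks with OSM was −0.10 as reported, −0.21 by library total and −0.22 by median of ratios, and with TGFB1 0.05, 0.12 and 0.16. The cause of these moves was not tested. The replicate block changed no named call, and it left 22 member peaks called with IL1B, 20 with TGFB1 and 20 with OSM. Libraries with the same number correlated by −0.0178 to 0.0325 over 40 pairs, and 15 of the 40 cytokine libraries correlated best with the unstimulated library of their own number. Low coverage limits the weak peaks, where the floor of 3 reads lay between 0.473 and 0.728 per Mb by group.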
